A study of Homo sapiens with 10 samples.

Results

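The genes described here encode the machinery of apoptosis, the BCL2 family with its pro-survival, BH3-only and effector branches, the caspases, the inhibitor of apoptosis proteins, the death receptors with their adaptors, and 2 death-associated protein kinases. They were chosen by gene symbol from a list of 37 genes, and all 37 were found among the 60671 genes of the table. Of the 37, 33 averaged 10 or more normalized counts across the 9 libraries of the replicated groups and were tested, as were 12971 genes in all. The cells were U2OS, a line from a human osteosarcoma, and their RNA was sequenced once ribosomal RNA had been removed. Ars cells received arsenite for 50 min, a stress that oxidizes proteins and stops translation. EBSS+VBL+Ars cells, called starved cells below, were kept for 18 h in EBSS, a salt solution with glucose but without AAs or serum, together with VBL (vinblastine, which breaks down microtubules), before the same arsenite stress. The EBSS+VBL+Gln+Ars group, called glutamine-recovered cells below, differed from it by glutamine in that medium. Each of these 3 groups had 3 libraries, and 1 library came from untreated cells. Because VBL always came with the loss of AAs and serum, their parts in any change cannot be told apart, and no replicated group went without arsenite. Whether the 3 libraries of a group were grown as separate cultures is not stated, and the spread behind each p-value may thus be technical.

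The values are normalized counts, in which a size factor for each library has been divided out. Between 3538017 and 7019842 reads were counted per library. The share of reads on RN7SL1, the RNA of the signal recognition particle, was 14.1 to 19.9% in Ars, 11.7 to 20.2% in starved, 7.88 to 16.7% in glutamine-recovered and 9.55% in untreated cells, and within each replicated group it was lowest in replicate 3. Of 6 genes of bone and mesenchymal cells, 5 had a mean over 10 normalized counts in each group, among them VIM, COL1A1 and RUNX2, and TWIST1 was at 0 in the replicated libraries. The summed level of these 6 genes was 27306 to 29251 normalized counts in Ars, 14927 to 16610 in starved and 17131 to 18756 in glutamine-recovered libraries. It was 12756.5 in the untreated library. Most of this sum was VIM, COL1A1 and SPARC, and other genes of the list did not follow it. ALPL had means of 59.5 in Ars, 232 in starved and 293 in glutamine-recovered cells, and RUNX2 had 142, 115 and 178. The part of this sum in the changes below was not tested. Of 4 epithelial markers KRT8 alone exceeded a mean of 10 over the 9 replicated libraries, and it moved with the groups, with means of 2334 normalized counts in Ars, 861 in starved and 859 in glutamine-recovered cells. None of 5 blood cell markers exceeded 10. Of 3 endothelial markers, VWF had means of 20.5, 11.3 and 13.0 and CDH5 of 3.24, 13.0 and 24.6 in the same order, and PECAM1 was at or near 0. The part of these markers in the changes below was not tested. Calls of higher or lower required 1.5-fold or more and an adjusted p below 0.05 in limma on log2(normalized count + 1), a scale that understates the change of low genes. In bulk RNA, a change in every cell and a change in the share of cells that express a gene cannot be told apart.

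Apoptosis is carried out by caspases, proteases that are made as inactive precursors. In the mitochondrial pathway, BH3-only proteins sense stress and bind either the pro-survival members of the BCL2 family or the effectors, which open pores in the outer mitochondrial membrane. Cytochrome c then leaves the mitochondria and, with APAF1, activates caspase-9. In the extrinsic pathway, ligands such as TRAIL and FAS ligand bring death receptors together, and the adaptor FADD recruits caspase-8.

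In starved cells, 23 of the 33 tested genes differed from Ars cells, 16 higher and 7 lower (69.7%, beside 42.8% of all genes tested). By direction, 48.5% of the 33 were higher and 21.2% lower, beside 21.5% and 21.3% of all genes. The genes that rose came from both sides of the pathway. Among them were the pro-survival genes BCL2, BCL2L1 and MCL1, the BH3-only genes BBC3, PMAIP1 and HRK, the death receptor gene TNFRSF10B, the caspase gene CASP4 and the inhibitor genes BIRC2, BIRC3 and XIAP. Among the genes that fell were BMF, BAD, CASP2, CASP6 and CASP9. The libraries of both groups did not overlap for 18 genes that lay higher and 8 that lay lower in starved cells, beside 30.5% and 29.5% of all genes (60.0% in either direction). The median log2 fold change was 0.57 over the 33 genes and 0.02 over all genes tested.

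With glutamine the calls were fewer and mostly lower. Between glutamine-recovered and starved cells, 11 of the 33 were called, 3 higher and 8 lower (33.3%, beside 17.0% of all genes). The 8 lower genes made up 24.2% of the 33, beside 8.52% of all genes, and the 3 higher made up 9.09%, close to the 8.45% of all genes. All 3 effector genes, BAX, BAK1 and BOK, were among the lower genes, with the BH3-only genes BBC3, HRK and BMF, the receptor gene TNFRSF1A and the kinase gene DAPK3. BIK, CASP8 and BIRC3 were higher. Libraries did not overlap for 4 genes that lay higher and 13 that lay lower with glutamine, beside 18.4% and 20.8% of all genes (39.2% in either direction). The median log2 fold change was -0.14 over the 33 genes and 0.004 over all genes tested. These calls depended on the scaling of the libraries. When the libraries were rescaled to equal totals, the log2 fold changes of all genes moved by a median of 0.28. Of all called genes, 89.6% were then higher with glutamine in place of 49.8%. Of the 33 genes, 5 were higher and 2 lower (15.2% and 6.06%, beside 21.9% and 2.54% of all genes tested). In either direction this was 21.2% of the 33, beside 24.4% of all genes. Without the replicate 3 libraries of all groups, a choice made after seeing the RN7SL1 shares, 4 of the 11 calls were left (12.1% of the 33, beside 7.53% of all genes), those of BIK, BOK, TNFRSF1A and DAPK3.

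**Figure D1:**
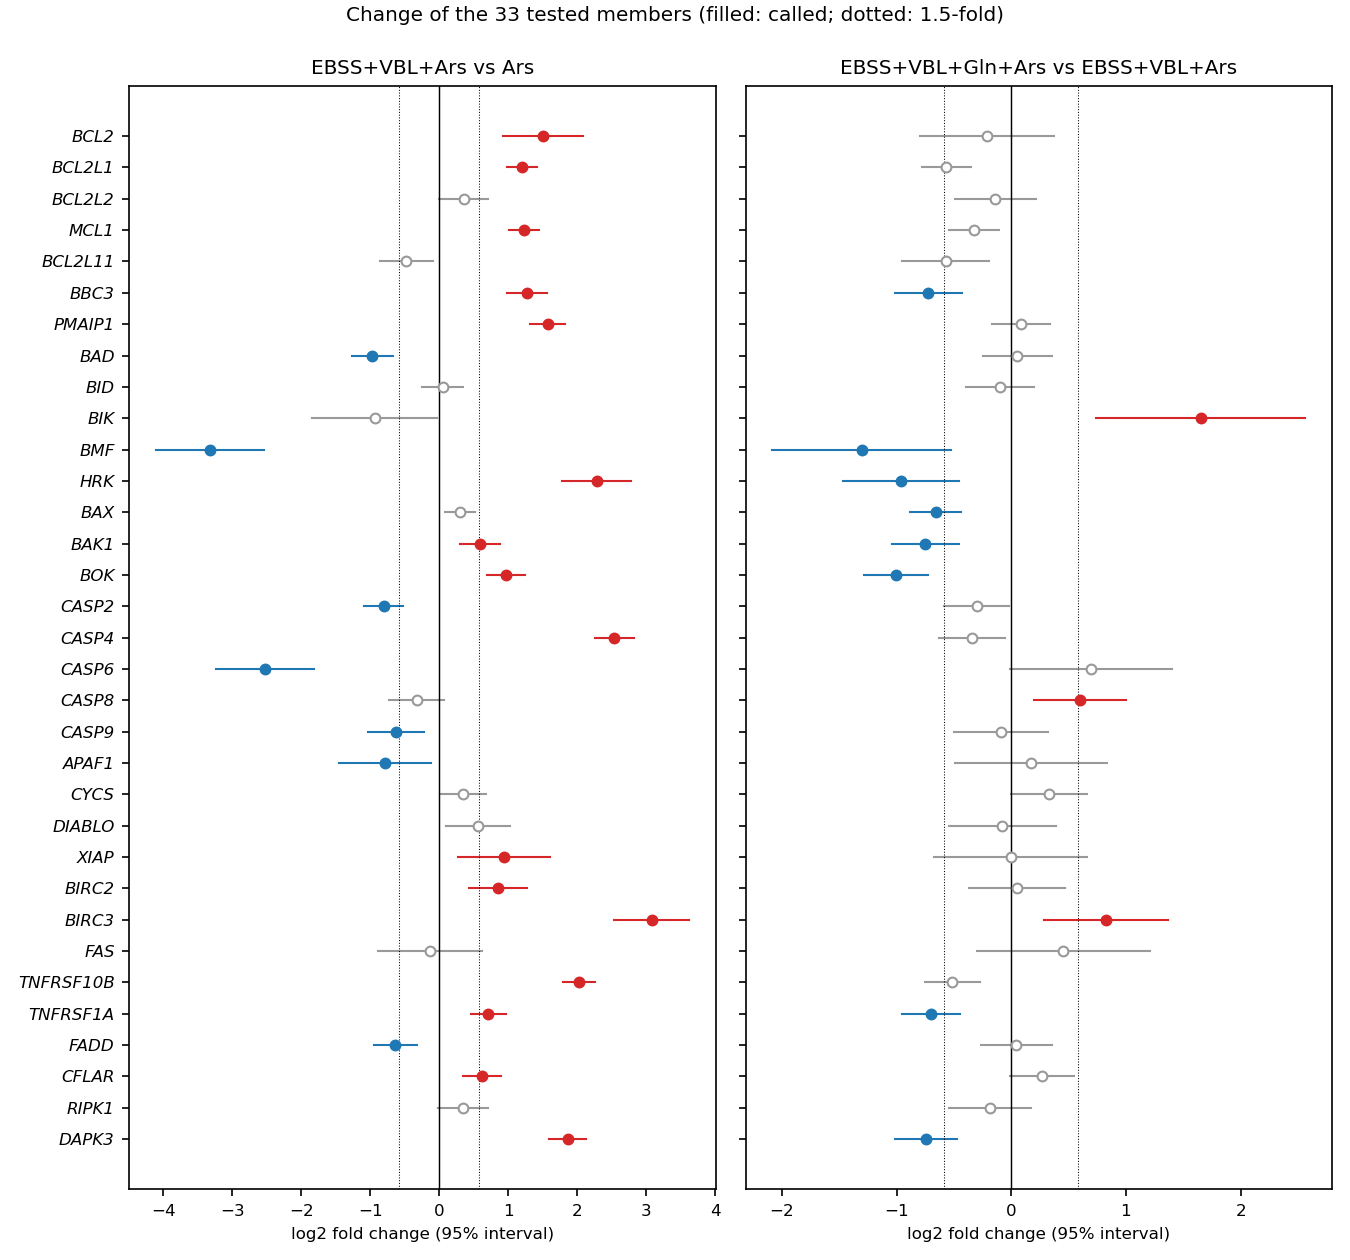
Log2 fold change of the 33 tested genes (points) with its 95% interval from limma (lines), in EBSS+VBL+Ars against Ars cells on the left and in EBSS+VBL+Gln+Ars against EBSS+VBL+Ars cells on the right. Filled red and blue points are called higher and lower, open grey points are not called, and dotted lines mark 1.5-fold; 23 points are filled on the left and 11 on the right, and the 3 effector genes are all blue on the right.

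Against Ars cells, glutamine-recovered cells differed in 20 of the 33 genes, 13 higher and 7 lower (60.6%, beside 31.8% of all genes, and by direction 39.4% and 21.2%, beside 16.5% and 15.3%). In order of their change, the higher genes were BIRC3, CASP4, PMAIP1, TNFRSF10B, HRK, BCL2, DAPK3, XIAP, BIRC2, MCL1, CFLAR, CYCS and BCL2L1, from 3.90 to 0.63 on the log2 scale, and the lower genes were BMF, CASP6, CASP2, BCL2L11, BAD, CASP9 and FADD, from -4.62 to -0.59. Here 16 genes lay higher and 8 lower without overlap, beside 29.3% and 27.9% of all genes (57.2% in either direction). This comparison shares its libraries with both of the others, so the values of each are given side by side below and are not independent. With equal totals, the shift of all genes was -0.16 between starved and Ars cells and 0.12 between glutamine-recovered and Ars cells. In the first, 12 of the 33 were higher and 9 lower (36.4% and 27.3%, beside 16.0% and 27.9% of all genes). In the second, 15 were higher and 6 lower (45.5% and 18.2%, beside 20.3% and 12.3%). Of all called genes, 36.5% and 62.3% were then higher in place of 50.3% and 51.9%. In the first of these comparisons 19 of the 23 calls were kept.

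**Figure D2:**
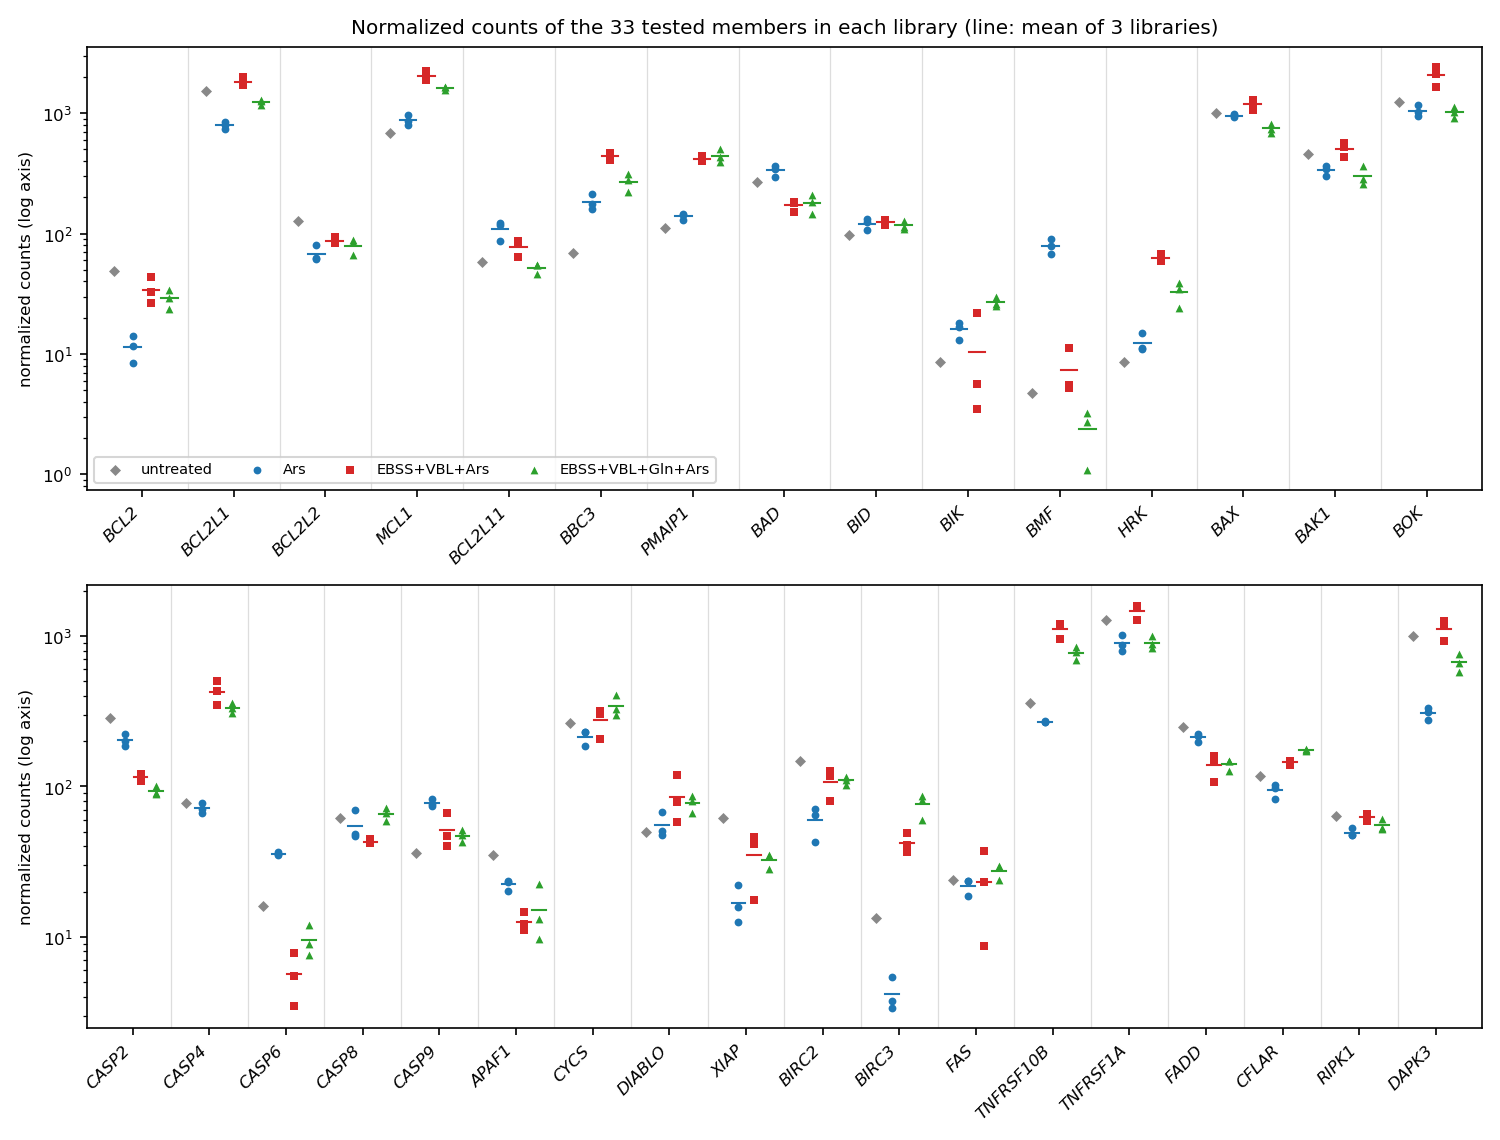
Normalized counts (log axis) of the 33 tested genes in each of the 10 libraries, with untreated cells as diamonds, Ars cells as circles, starved cells as squares and glutamine-recovered cells as triangles. Lines are means of 3 libraries; starved libraries lie well above Ars libraries for CASP4, BIRC3, TNFRSF10B and HRK, and below them for BMF and CASP6.

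The pro-survival proteins BCL2, BCL-XL (encoded by BCL2L1), BCL-W (BCL2L2) and MCL1 hold effectors and BH3-only proteins in check. Per kilobase of the canonical transcript, BCL2L1 and MCL1 were the most abundant of the 4. BCL2L1 had 309.7 (range 287 to 331) normalized counts per kilobase in Ars cells and MCL1 221 (range 202 to 245), while BCL2L2 had 19.4 (range 17.6 to 22.7) and BCL2 1.66 (range 1.22 to 2.06). The ranges of neighbours in this order did not overlap. Without division by length, MCL1 had a higher mean than BCL2L1 in Ars cells, at 874 against 797 normalized counts. MCL1 (chromosome 1, 150560895 to 150579738 on hg38), a protein with a short half-life, measured 796, 966 and 861 normalized counts in the Ars libraries, 1902, 2240.2 and 2004 in the EBSS+VBL+Ars libraries and 1658, 1664 and 1568 in the EBSS+VBL+Gln+Ars libraries. Every starved library lay above every glutamine-recovered one, and these above every Ars library. The change was 1.23 (SE 0.11, adjusted p = 1.08e-08 from limma) on the log2 scale between starved and Ars cells and -0.33 between glutamine-recovered and starved cells, which fell short of 1.5-fold. BCL2L1 (chromosome 20, 31664452 to 31723989) measured 801, 851 and 739 normalized counts in the Ars libraries, 1724, 1767 and 2006 in the EBSS+VBL+Ars libraries and 1169.9, 1282 and 1253.3 in the EBSS+VBL+Gln+Ars libraries. It was ordered as MCL1 was, with no overlap between the groups. It rose by 1.20 (SE 0.10, adjusted p = 1.09e-08 from limma) in starved cells, was -0.57 with glutamine, just short of the 1.5-fold threshold, and stayed above Ars cells in glutamine-recovered cells (0.63, a call lost without Ars replicate 3, at 0.58). The glutamine change of BCL2L1 was called without EBSS+VBL+Ars replicate 1 or 2 or without EBSS+VBL+Gln+Ars replicate 2. BCL2 (chromosome 18, 63123346 to 63320128), the founding member of the family, was low, with 14.2, 8.38 and 11.7 normalized counts in the Ars libraries, 32.6, 43.7 and 26.5 in the EBSS+VBL+Ars libraries and 23.8, 29.4 and 34.3 in the EBSS+VBL+Gln+Ars libraries. Both EBSS+VBL groups lay above the Ars libraries and overlapped each other. BCL2 rose by 1.502 (SE 0.28, adjusted p = 0.000145 from limma) in starved cells and was -0.21 with glutamine (95% interval -0.79 to 0.37). BCL2L2 was not called in any comparison, with means of 68.3 ± 10.2 in Ars, 87.1 ± 6.24 in starved and 79.5 ± 11.5 normalized counts in glutamine-recovered cells (SD, n = 3).

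The BH3-only genes went in both directions. Of 8 such genes, 3 were higher and 2 lower in starved than in Ars cells, beside 21.5% and 21.3% of all genes. With glutamine 1 was higher and 3 were lower, beside 8.45% and 8.52% of all genes. BBC3 (chromosome 19, 47220822 to 47232766) encodes PUMA, a target of p53 that binds all the pro-survival proteins. It measured 175, 215 and 161 normalized counts in the Ars libraries, 411, 468 and 452 in the EBSS+VBL+Ars libraries and 278, 312 and 221 in the EBSS+VBL+Gln+Ars libraries. The 3 groups did not overlap, with the starved libraries highest and the Ars libraries lowest. BBC3 rose by 1.28 (SE 0.14, adjusted p = 3.15e-07 from limma) in starved cells and fell by 0.72 with glutamine (SE 0.14, adjusted p = 0.000976 from limma), or -0.44 with equal totals, where it was no longer called. HRK (chromosome 12, 116856144 to 116881441), which in rodent neurons is induced by loss of growth factors, measured 14.9, 11.2 and 10.9 normalized counts in the Ars libraries, 62.9, 59.4 and 67.4 in the EBSS+VBL+Ars libraries and 34.6, 23.9 and 39.1 in the EBSS+VBL+Gln+Ars libraries. Its groups were ordered in the same way and did not overlap. HRK rose by 2.28 (SE 0.24, adjusted p = 1.85e-07 from limma) in starved cells and fell by 0.96 with glutamine (SE 0.24, adjusted p = 0.00607 from limma), or -0.68 and not called with equal totals.

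PMAIP1 (chromosome 18, 59899996 to 59904305) encodes NOXA, which binds MCL1 and marks it for degradation. It measured 142, 129 and 147 normalized counts in the Ars libraries, 402, 444 and 404 in the EBSS+VBL+Ars libraries and 395, 506 and 431 in the EBSS+VBL+Gln+Ars libraries. Both EBSS+VBL groups lay above all Ars libraries, and they overlapped each other. PMAIP1 rose by 1.57 (SE 0.12, adjusted p = 2.36e-09 from limma) in starved cells, and its change with glutamine was 0.09 (95% interval -0.17 to 0.34), or 0.37 with equal totals, and was not called. The counts of PMAIP1 divided by those of MCL1 in the same library, a ratio that no scaling of libraries can change, were 0.179, 0.134 and 0.170 in Ars, 0.211, 0.198 and 0.202 in starved and 0.238, 0.304 and 0.275 in glutamine-recovered cells. The 3 groups did not overlap and the ratio was highest in glutamine-recovered cells, by 0.41 on the log2 scale over starved cells. Each of the 3 comparisons gave p = 0.1 in a two-sided exact permutation test, the smallest p that 3 against 3 libraries can give, and 0.1 after adjustment over 9 such tests.

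BMF (chromosome 15, 40087890 to 40108892), which in healthy cells is held at the cytoskeleton, showed the widest fall. It measured 79.0, 89.4 and 67.9 normalized counts in the Ars libraries, 11.2, 5.24 and 5.52 in the EBSS+VBL+Ars libraries and 3.25, 1.09 and 2.74 in the EBSS+VBL+Gln+Ars libraries, and 4.75 in the untreated library. Ars libraries stood apart from all others, and every starved library lay above every glutamine-recovered one. BMF fell by 3.32 on the log2 scale in starved cells (SE 0.37, adjusted p = 4.16e-07 from limma) and by a further 1.30 with glutamine (SE 0.37, adjusted p = 0.0138). The fall with glutamine rests on 3 to 10 reads per starved library and 1 to 4 per glutamine-recovered library, and it was lost without EBSS+VBL+Ars replicate 1 (-0.99), without EBSS+VBL+Gln+Ars replicate 2 (-0.99), with DESeq2 (-1.65) and with only the 2 groups fitted.

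BAD (chromosome 11, 64269830 to 64284704), whose protein is switched off when growth factor kinases phosphorylate it, measured 346, 363 and 298 normalized counts in the Ars libraries, 179, 152 and 183 in the EBSS+VBL+Ars libraries and 183, 209 and 145 in the EBSS+VBL+Gln+Ars libraries. The Ars libraries lay above all others, and both EBSS+VBL groups overlapped. BAD fell by 0.97 in starved cells (SE 0.14, adjusted p = 1.24e-05 from limma) and was 0.05 with glutamine (95% interval -0.25 to 0.35). BIK (chromosome 22, 43110750 to 43129712), which acts at the endoplasmic reticulum, had few counts, with 18.2, 13.0 and 16.8 normalized counts in the Ars libraries, 5.62, 3.49 and 22.1 in the EBSS+VBL+Ars libraries and 25.97, 25.04 and 29.5 in the EBSS+VBL+Gln+Ars libraries. Every glutamine-recovered library lay above every starved one, and the starved libraries spread widely, with replicate 3 apart from the others. BIK was the gene of the 33 with the largest rise with glutamine, 1.65 (SE 0.43, adjusted p = 0.00841 from limma), and the rise was called in every alternative that tested it. Its size turned on single starved libraries, from 1.17 without EBSS+VBL+Ars replicate 2 to 2.35 without replicate 3. Between starved and Ars cells it was -0.94 and not called, but it was called lower without EBSS+VBL+Ars replicate 3 (-1.63) and with equal totals (-1.09). BCL2L11 (chromosome 2, 111119378 to 111168444), which encodes BIM, a strong activator of the effectors, measured 118, 123 and 86.4 normalized counts in the Ars libraries, 64.0, 87.3 and 82.9 in the EBSS+VBL+Ars libraries and 55.2, 54.4 and 45.9 in the EBSS+VBL+Gln+Ars libraries. Its glutamine-recovered libraries were lower than all others. It was called only between glutamine-recovered and Ars cells, at -1.05 (SE 0.18, adjusted p = 0.000111 from limma). The change of -0.57 between glutamine-recovered and starved cells missed 1.5-fold by little and was called without EBSS+VBL+Ars replicate 1 or without EBSS+VBL+Gln+Ars replicate 1 or 2, and that of -0.47 between starved and Ars cells was called without Ars replicate 3 (-0.63) and with equal totals (-0.65). BID, which caspase-8 cleaves to link both pathways, was called in no comparison, and its 9 values lay between 106 and 133 normalized counts.

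**Figure D3:**
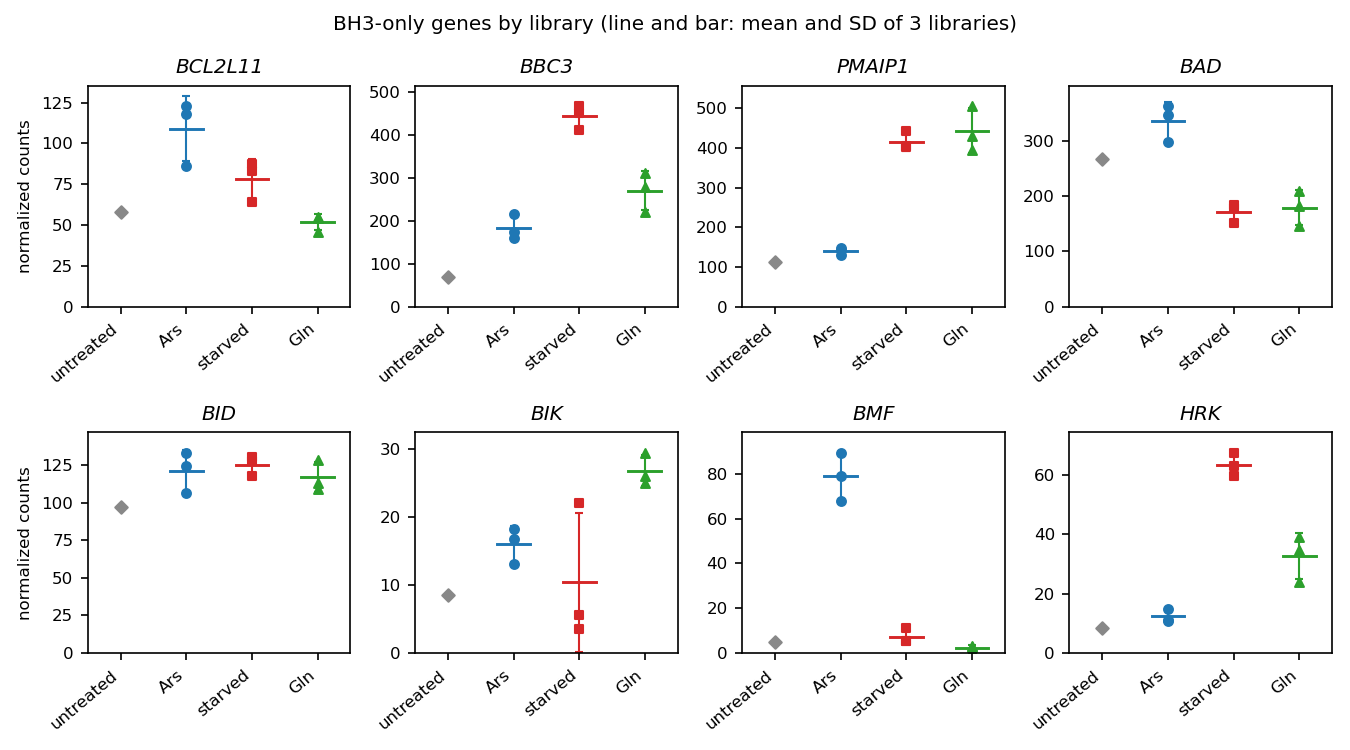
Normalized counts (linear axis from 0) of the 8 BH3-only genes in untreated, Ars, EBSS+VBL+Ars (starved) and EBSS+VBL+Gln+Ars (Gln) libraries. Points are libraries, and lines with bars are the mean and SD of 3; BBC3 and HRK are highest in starved cells, PMAIP1 is high in both EBSS+VBL groups, and BMF is high in Ars cells and at 4.75 in the untreated library.

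The effectors BAX, BAK (encoded by BAK1) and BOK form the pores of the outer mitochondrial membrane, and BOK, unlike the other two, is known to act without being held by pro-survival proteins. All 3 were lower with glutamine, beside 8.52% of all genes. BAX (chromosome 19, 48954815 to 48961798) measured 924, 977 and 969 normalized counts in the Ars libraries, 1056, 1201 and 1297 in the EBSS+VBL+Ars libraries and 813, 746 and 687 in the EBSS+VBL+Gln+Ars libraries. The 3 groups did not overlap, with glutamine-recovered libraries lowest. BAX fell by 0.66 with glutamine (SE 0.11, adjusted p = 0.000209 from limma), while its change of 0.30 between starved and Ars cells was under 1.5-fold. BAK1 (chromosome 6, 33572547 to 33580293) measured 344, 365 and 301 normalized counts in the Ars libraries, 434, 520.3 and 571 in the EBSS+VBL+Ars libraries and 287, 365 and 258 in the EBSS+VBL+Gln+Ars libraries. The starved libraries were highest, and the Ars and glutamine-recovered libraries overlapped. BAK1 rose by 0.59 (SE 0.14, adjusted p = 0.00132 from limma) in starved cells, a call at the edge of 1.5-fold. It was lost when Ars replicate 3 was left out (0.51), or EBSS+VBL+Ars replicate 2 (0.57) or 3 (0.50) and with other tools and scalings. It fell by 0.75 with glutamine (SE 0.14, adjusted p = 0.000659 from limma).

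BOK (chromosome 2, 241551424 to 241574131) measured 945, 1175 and 1023 normalized counts in the Ars libraries, 1650.0, 2135 and 2417 in the EBSS+VBL+Ars libraries and 1025, 1129.9 and 909 in the EBSS+VBL+Gln+Ars libraries. Every starved library lay above all Ars and all glutamine-recovered libraries, which overlapped. BOK rose by 0.97 (SE 0.13, adjusted p = 5.02e-06 from limma) in starved cells and fell by 1.005 with glutamine (SE 0.13, adjusted p = 3.38e-05 from limma). In glutamine-recovered cells it differed from Ars cells by -0.04 (95% interval -0.31 to 0.24). With equal totals the changes with glutamine were -0.37 for BAX, -0.46 for BAK1 and -0.72 for BOK, and only that of BOK was still called. Relative to the shift of all genes under that scaling, they were -0.66, -0.75 and -1.003. Rescaling moves all genes almost alike, so these values return the reported ones by construction and are no separate check. Per kilobase of the canonical transcript, BAX was the most abundant effector in every group. It had 1203 (range 1162 to 1229) normalized counts per kilobase in Ars cells, 1490.2 (range 1328 to 1632) in starved and 941 (range 864 to 1022) in glutamine-recovered cells. This order rests on the length used, 795 bases for BAX and 2626 for BOK. Without it, BOK had the higher mean in each group, at 1048 against 957 in Ars, 2068 against 1185 in starved and 1021 against 748 in glutamine-recovered cells.

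**Figure D4:**
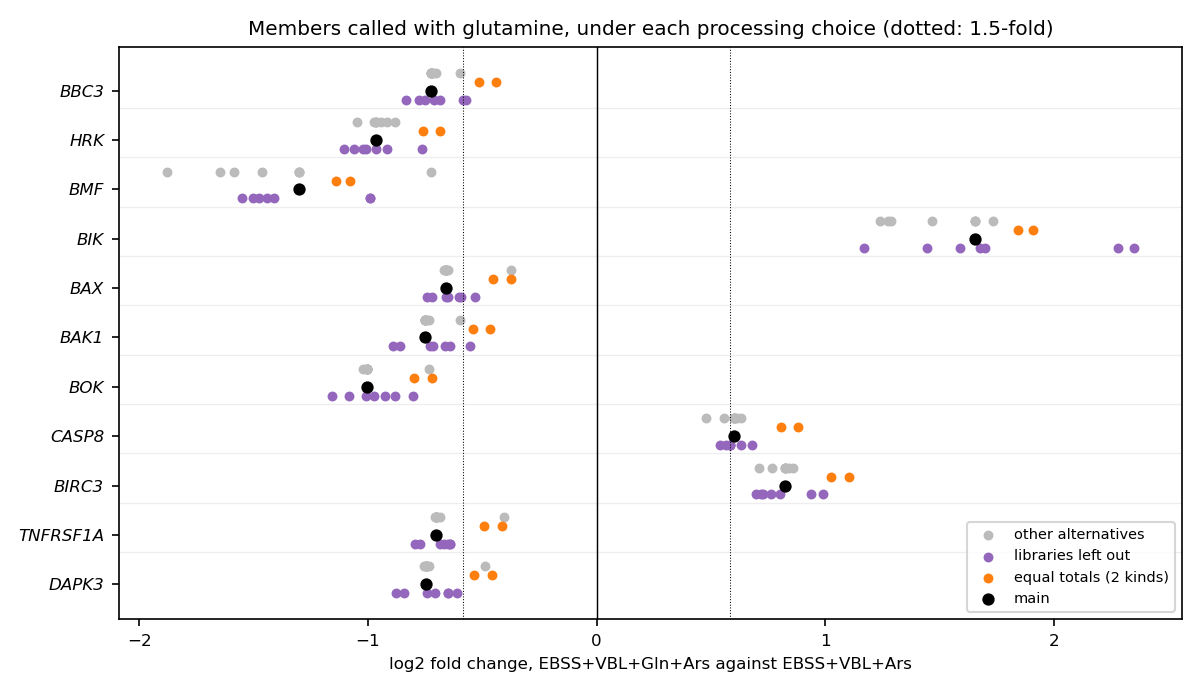
Log2 fold change between glutamine-recovered and starved cells of the 11 genes called there (rows), as reported (black), with libraries rescaled to equal totals (orange), with libraries left out (purple) and under other processing choices (grey). Dotted lines mark 1.5-fold. Every point keeps its side of 0, and with equal totals BBC3, BAX, BAK1, TNFRSF1A and DAPK3 lie within 1.5-fold.

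Among 6 caspase genes, of which 5 were tested, 1 rose and 3 fell in starved cells, beside 21.5% and 21.3% of all genes. CASP4 (chromosome 11, 104942866 to 104969366), an inflammatory caspase that senses bacterial lipopolysaccharide in the cytosol and can drive pyroptosis, measured 66.8, 70.8 and 77.1 normalized counts in the Ars libraries, 502, 429.5 and 346 in the EBSS+VBL+Ars libraries and 330.1, 309 and 357 in the EBSS+VBL+Gln+Ars libraries. The Ars libraries were far below both EBSS+VBL groups, which overlapped. CASP4 rose by 2.54 (SE 0.14, adjusted p = 2.36e-11 from limma) in starved cells. In glutamine-recovered cells it remained 2.20 (SE 0.14, adjusted p = 2.97e-10 from limma) above Ars cells, and its change with glutamine was -0.34 and not called. CASP6 (chromosome 4, 109688622 to 109703583), an executioner caspase that cleaves lamin A, measured 36.5, 35.4 and 35.2 normalized counts in the Ars libraries, 7.86, 3.49 and 5.52 in the EBSS+VBL+Ars libraries and 7.58, 12.0 and 8.91 in the EBSS+VBL+Gln+Ars libraries. Its Ars libraries stood apart from all others. CASP6 fell by 2.52 in starved cells (SE 0.34, adjusted p = 3.59e-06 from limma) on 2 to 7 reads per starved library, and its change with glutamine was 0.70 and not called, except with equal totals (0.94) and without EBSS+VBL+Ars replicate 1 (0.93).

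CASP2 (chromosome 7, 143288215 to 143307696), an initiator caspase activated in the PIDDosome, measured 201, 222 and 186 normalized counts in the Ars libraries, 117, 120.5 and 109 in the EBSS+VBL+Ars libraries and 101, 90.4 and 89.8 in the EBSS+VBL+Gln+Ars libraries. The groups did not overlap, with Ars libraries highest and glutamine-recovered ones lowest. CASP2 fell by 0.81 in starved cells (SE 0.13, adjusted p = 4.71e-05 from limma) and was -0.30 with glutamine, which was not called. CASP9 (chromosome 1, 15490832 to 15526534), the initiator caspase of the mitochondrial pathway, measured 77.0, 82.9 and 73.8 normalized counts in the Ars libraries, 47.2, 40.2 and 66.3 in the EBSS+VBL+Ars libraries and 47.6, 42.5 and 51.4 in the EBSS+VBL+Gln+Ars libraries. All Ars libraries were above the others. CASP9 fell by 0.62 in starved cells (SE 0.20, adjusted p = 0.0106 from limma), a call lost without Ars replicate 2 or without EBSS+VBL+Ars replicate 1 or 2 (-0.58 to -0.47). CASP8 (chromosome 2, 201233443 to 201361836), the initiator caspase of death receptors, measured 69.5, 46.6 and 48.6 normalized counts in the Ars libraries, 44.9, 41.9 and 42.0 in the EBSS+VBL+Ars libraries and 71.4, 58.8 and 67.2 in the EBSS+VBL+Gln+Ars libraries. Every glutamine-recovered library was above every starved one, and the Ars libraries overlapped the glutamine-recovered ones. CASP8 rose by 0.60 (SE 0.19, adjusted p = 0.0249 from limma) with glutamine, which was lost without EBSS+VBL+Ars replicate 2 or 3 or without EBSS+VBL+Gln+Ars replicate 1 or 3 (0.54 to 0.58). CASP10, a relative of CASP8, had 0 to 5 reads per library and was not tested.

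Of the factors that act with caspase-9, APAF1 (chromosome 12, 98645290 to 98735433), the scaffold of the apoptosome, measured 23.6, 23.3 and 20.1 normalized counts in the Ars libraries, 14.6, 12.2 and 11.0 in the EBSS+VBL+Ars libraries and 9.74, 13.1 and 22.6 in the EBSS+VBL+Gln+Ars libraries. The starved libraries were below all Ars libraries, and glutamine-recovered libraries spanned both. APAF1 fell by 0.78 in starved cells (SE 0.32, adjusted p = 0.0422 from limma). The call was lost without any one of the 3 Ars libraries, without EBSS+VBL+Ars replicate 2 or 3 (-0.85 to -0.70), with no filter on low values, with quantile normalization and with DESeq2. CYCS (chromosome 7, 25118656 to 25125260), which encodes cytochrome c, measured 230.2, 184 and 229 normalized counts in the Ars libraries, 316, 306 and 207 in the EBSS+VBL+Ars libraries and 404, 297 and 329 in the EBSS+VBL+Gln+Ars libraries. All glutamine-recovered libraries exceeded all Ars libraries. CYCS was 0.67 (SE 0.16, adjusted p = 0.00201 from limma) higher in glutamine-recovered than in Ars cells, which was lost without Ars replicate 2 or EBSS+VBL+Gln+Ars replicate 1 (0.55 to 0.57), and it was 0.34 and not called in starved cells. DIABLO, which releases caspases from their inhibitors, was called in no comparison, with means of 55.4 ± 11.0, 85.2 ± 30.7 and 77.9 ± 10.5 normalized counts (SD, n = 3) in Ars, starved and glutamine-recovered cells. Between starved and Ars cells it was 0.57, and it was called there without Ars replicate 2 or without EBSS+VBL+Ars replicate 1.

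The inhibitor of apoptosis genes BIRC2, BIRC3 and XIAP rose in starved cells, while BIRC5 of the same family, which is outside the 37, fell there (-0.69) and BIRC6 was not called (0.20). BIRC3 (chromosome 11, 102317484 to 102339403), which encodes cIAP2, a ubiquitin ligase of TNF receptor complexes and a well known NF-kB target, measured 5.40, 3.73 and 3.35 normalized counts in the Ars libraries, 49.4, 36.7 and 40.9 in the EBSS+VBL+Ars libraries and 59.5, 81.6 and 87.0 in the EBSS+VBL+Gln+Ars libraries. The 3 groups did not overlap, and BIRC3 was highest in glutamine-recovered cells. It rose by 3.08 (SE 0.26, adjusted p = 8.21e-09 from limma) in starved cells, or 2.37 with a pseudocount of 5, where the Ars libraries held 4 to 8 reads each. It rose by a further 0.82 (SE 0.26, adjusted p = 0.0225 from limma) with glutamine, a call lost without EBSS+VBL+Ars replicate 2 or 3 or without EBSS+VBL+Gln+Ars replicate 2 or 3 (0.72 to 0.80). BIRC2 (chromosome 11, 102347211 to 102378670), its neighbour on the chromosome, encodes cIAP1 and measured 70.9, 42.9 and 64.6 normalized counts in the Ars libraries, 117, 80.3 and 126 in the EBSS+VBL+Ars libraries and 103, 111 and 115 in the EBSS+VBL+Gln+Ars libraries. Both EBSS+VBL groups were above all Ars libraries and overlapped each other. BIRC2 rose by 0.85 (SE 0.20, adjusted p = 0.00122 from limma) in starved cells and was 0.05 with glutamine (95% interval -0.36 to 0.47). XIAP (chromosome X, 123859712 to 123913972), a direct inhibitor of caspases, measured 22.3, 15.8 and 12.6 normalized counts in the Ars libraries, 41.6, 17.5 and 46.4 in the EBSS+VBL+Ars libraries and 28.1, 34.8 and 34.3 in the EBSS+VBL+Gln+Ars libraries. Starved replicate 2 lay within the range of the Ars libraries and the other starved libraries well above it. XIAP rose by 0.94 (SE 0.32, adjusted p = 0.0175 from limma), a call that ended with equal totals and when Ars replicate 3 or EBSS+VBL+Ars replicate 1 or 3 was left out (0.68 to 0.76). Between glutamine-recovered and Ars cells it was 0.93 and called, and this was lost without Ars replicate 2 or 3 or without EBSS+VBL+Gln+Ars replicate 2 or 3 (0.75 to 0.90).

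RefSeq promoter windows, from 250 bases before to 50 after a gene's start on GRCh38.p14, were given for 30 of the 37 genes, 55 windows in all. Matches to the NF-kB consensus were found in 6 of the 55 windows (10.9%), among them those of BIRC3, CFLAR and HRK, beside 11.3% of all 35116 windows. The core of the AA response element (TGATGNAA, which is bound by ATF4 and its partners) was found in 1 of the 55 (1.82%), that of HRK, beside 3.62% of all windows. AP-1 (TGANTCA) was found in 6 of the 55 windows (10.9%, beside 7.71%), the E-box CACGTG in 5 (9.09%, beside 7.26%) and the p53 decamer in 4 (7.27%, beside 6.63%). These shares lay near those of all windows and are no result about the genes. Both strands were searched, some genes had several windows that can overlap, and none of these motifs contains another. The window of PMAIP1 held none of these 5 motifs. A match is a description of letters and not a bound site. The 250 bases before the start are shown for 3 genes that rose in starved cells and hold such a match, 5′ to 3′ on the strand of the gene, with NF-kB matches in capitals for BIRC3 and CFLAR and the AA response element core in capitals for HRK, whose NF-kB matches lie after the start and are not shown.
BIRC3, chr11:102317234-102317483, plus strand: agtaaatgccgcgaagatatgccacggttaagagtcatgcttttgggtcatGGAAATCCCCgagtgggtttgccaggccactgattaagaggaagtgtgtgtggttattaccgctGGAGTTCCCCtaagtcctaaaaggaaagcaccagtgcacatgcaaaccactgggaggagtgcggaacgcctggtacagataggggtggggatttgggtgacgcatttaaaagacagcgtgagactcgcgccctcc
CFLAR, chr2:201118466-201118715, plus strand: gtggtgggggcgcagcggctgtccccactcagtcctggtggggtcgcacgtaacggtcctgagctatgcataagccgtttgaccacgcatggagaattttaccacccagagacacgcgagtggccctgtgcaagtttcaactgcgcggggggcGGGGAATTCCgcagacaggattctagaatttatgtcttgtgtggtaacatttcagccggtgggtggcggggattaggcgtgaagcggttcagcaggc
HRK, chr12:116881442-116881691, minus strand: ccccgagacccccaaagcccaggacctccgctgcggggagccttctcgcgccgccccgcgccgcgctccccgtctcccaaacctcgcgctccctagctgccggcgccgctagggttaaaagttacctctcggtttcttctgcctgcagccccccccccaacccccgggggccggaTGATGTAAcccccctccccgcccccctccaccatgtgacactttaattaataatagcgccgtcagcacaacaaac

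Of 5 death receptor genes, 3 were tested, and 2 of these rose in starved cells, beside 21.5% of all genes. The 2 that were not tested had almost no reads. TNFRSF10B (chromosome 8, 23020133 to 23069031) encodes DR5, a TRAIL receptor that is a known target of CHOP. It measured 272, 268 and 268 normalized counts in the Ars libraries, 951, 1203 and 1166 in the EBSS+VBL+Ars libraries and 697, 840.4 and 782 in the EBSS+VBL+Gln+Ars libraries. The Ars values differed little among themselves, and the 3 groups did not overlap. TNFRSF10B rose by 2.03 (SE 0.11, adjusted p = 3.24e-11 from limma) in starved cells, was -0.51 with glutamine (95% interval -0.75 to -0.28), short of 1.5-fold except without EBSS+VBL+Ars replicate 1 (-0.62), and was 1.51 above Ars cells in glutamine-recovered cells. Of the other TRAIL receptor genes, TNFRSF10A (DR4) and TNFRSF10D (the decoy DcR2) had 1 read each in 1 of the 10 libraries and 0 in the rest. At these depths a count of 0 allows up to 3 reads, so of TNFRSF10A, TNFRSF10B and TNFRSF10D only TNFRSF10B was detected beyond that limit. The ratio of TNFRSF10B to TNFRSF10D thus holds nothing beyond TNFRSF10B itself. TNFRSF10C, a further TRAIL receptor gene from the additional list described below, was too low to be tested. It measured 3.80 normalized counts in the untreated library and at most 1.75 in any replicated library.

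TNFRSF1A (chromosome 12, 6328757 to 6342114), the main receptor of TNF, measured 800.0, 1023 and 871 normalized counts in the Ars libraries, 1284, 1596 and 1539 in the EBSS+VBL+Ars libraries and 831, 999 and 884 in the EBSS+VBL+Gln+Ars libraries. The starved libraries were above all others, and the Ars and glutamine-recovered libraries overlapped. TNFRSF1A rose by 0.71 (SE 0.12, adjusted p = 4.59e-05 from limma) in starved cells and fell by 0.70 with glutamine (SE 0.12, adjusted p = 0.000333 from limma). Both calls were lost with equal totals, at 0.53 and -0.41, and with quantile normalization. FAS, the receptor of FAS ligand, was called in no comparison, with 21.9 ± 2.84 normalized counts in Ars, 23.0 ± 14.2 in starved and 27.5 ± 3.07 in glutamine-recovered cells (SD, n = 3). Its starved libraries spread from 8.73 to 37.1, and without EBSS+VBL+Ars replicate 1 its change with glutamine was 0.89 and was called.

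FADD (chromosome 11, 70203296 to 70207390), the adaptor that joins death receptors to caspase-8, measured 222, 216 and 197 normalized counts in the Ars libraries, 146, 161 and 107 in the EBSS+VBL+Ars libraries and 128, 147 and 147 in the EBSS+VBL+Gln+Ars libraries. Ars libraries were above all others. FADD fell by 0.63 in starved cells (SE 0.15, adjusted p = 0.00138 from limma), a call lost without EBSS+VBL+Ars replicate 3 (-0.46), and was -0.59 in glutamine-recovered against Ars cells, lost without Ars replicate 1 or 2 or without EBSS+VBL+Gln+Ars replicate 1. CFLAR (chromosome 2, 201116154 to 201176687) encodes FLIP, a relative of caspase-8 without protease activity that blocks it at the receptor. CFLAR measured 103, 82.9 and 97.3 normalized counts in the Ars libraries, 148, 139.7 and 148 in the EBSS+VBL+Ars libraries and 179, 171 and 175 in the EBSS+VBL+Gln+Ars libraries. The groups did not overlap, with glutamine-recovered libraries highest. CFLAR rose by 0.62 (SE 0.13, adjusted p = 0.000564 from limma) in starved cells, a call lost without Ars replicate 2 (0.54) and with equal totals (0.45), and was 0.89 above Ars cells in glutamine-recovered cells. The antisense gene CFLAR-AS1 and the pseudogene IMPDH1P10, whose exons overlap those of CFLAR on the opposite strand, moved with it. They measured at most 2.79 and 6.52 normalized counts in an Ars library and 17.7 to 34.9 and 35.9 to 59.4 in starved libraries, and their part in the value of CFLAR was not tested.

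The counts of CFLAR divided by those of CASP8 in the same library were 1.48, 1.78 and 2.00 in Ars, 3.30, 3.33 and 3.53 in starved and 2.50, 2.91 and 2.60 in glutamine-recovered cells. The ratio was highest in starved cells and the groups did not overlap. The difference was 0.95 on the log2 scale between starved and Ars cells and -0.34 between glutamine-recovered and starved cells, each with p = 0.1 in the exact permutation test, again the smallest possible. RIPK1, the kinase that directs TNF receptor signals to survival or death, was called in no comparison, with 49.3 ± 2.89, 62.9 ± 3.08 and 55.2 ± 4.98 normalized counts (SD, n = 3) in Ars, starved and glutamine-recovered cells.

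DAPK3 (chromosome 19, 3958453 to 3971123), a death-associated kinase that phosphorylates myosin light chains, measured 276, 331 and 313 normalized counts in the Ars libraries, 926, 1269 and 1173 in the EBSS+VBL+Ars libraries and 661, 761 and 581 in the EBSS+VBL+Gln+Ars libraries, and 1000.4 in the untreated library. The 3 replicated groups did not overlap, and the untreated value lay within the range of the starved libraries. DAPK3 rose by 1.86 (SE 0.13, adjusted p = 6.90e-10 from limma) in starved cells, fell by 0.74 with glutamine (SE 0.13, adjusted p = 0.000435 from limma) and was 1.12 above Ars cells in glutamine-recovered cells. The fall with glutamine was -0.46 and not called with equal totals. DAPK1, a tumour suppressor kinase of the same family, had 6 to 9 reads per Ars library, 0 in all 3 starved libraries and 0 to 3 in glutamine-recovered libraries, which was too low to be tested.

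Exons of 20 of the 37 genes overlap those of a gene on the opposite strand, and the sources do not say whether reads were counted by strand, so the values of these genes are uncertain to that extent. For BMF, BOK, BAK1 and BIRC3 the overlapping gene had at most 8.38 normalized counts in any replicated library. For BAD the overlapping gene GPR137 measured 658 to 869 normalized counts in Ars, 592 to 779 in starved and 452 to 576 in glutamine-recovered libraries, above BAD itself in every group. For TNFRSF10B the overlapping gene RHOBTB2 measured 147 to 184, 111 to 120.4 and 107 to 123 in the same order, below TNFRSF10B in every group. The part of these genes in the values of BAD and TNFRSF10B was not tested. For CASP6 the overlapping gene MCUB measured 33.5 to 39.2 normalized counts in Ars, 7.86 to 11.0 in starved and 22.9 to 36.8 in glutamine-recovered libraries, and its part in the value of CASP6 was not tested. MIR4435-2HG, which overlaps BCL2L11, went the other way from it, with 122 to 155 normalized counts in Ars, 241 to 325 in starved and 236 to 285 in glutamine-recovered libraries. Exons of 8 of the 37 genes also overlap those of a gene on the same strand. They are MCL1, BCL2L2, BBC3, CASP8, DIABLO, FAS, CFLAR and DAPK3, and the part of this overlap in their values was not tested.

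The untreated library had no replicate, so its values were set beside the range of the Ars libraries with no test. Its library number follows those of the replicate 3 libraries, apart from the numbers of replicates 1 and 2 of every group. The labels do not name this a batch or a sequencing run. The RN7SL1 share of the untreated library, 9.55%, was below the 14.1% of Ars replicate 3, the lowest of the Ars libraries. The part of these features in the differences was not tested. Over these 4 libraries 15 genes averaged 100 or more normalized counts, and 2 of them differed by at least 2-fold and lay outside the Ars range, beside 11.9% of 6132 genes. Of the 2, 1 was higher and 1 lower in Ars cells, beside 5.72% and 6.20% of those genes. For 15 genes these counts lie near the shares of all genes and are no result about the genes. The untreated value lay outside the Ars range for all 15, so that condition alone set none of them apart. Among the 15, the untreated values of BCL2L1, BAK1, BOK, TNFRSF10B, TNFRSF1A and DAPK3 lay above every Ars library. Those of MCL1, BBC3 and PMAIP1 lay below every Ars library. All of these genes were called higher in starved than in Ars cells. At 462 and 1285 normalized counts, untreated BAK1 and TNFRSF1A lay within the range of the starved libraries. Untreated BCL2L1, at 1519.7, lay below every starved library. BBC3 measured 69.4 normalized counts untreated (Poisson 95% interval 54.4 to 87.3, which covers counting error only), and its Ars mean was 2.65 times that value. The untreated value of DAPK3 was 3.26 times its Ars mean. Every Ars library lay on the same side of the untreated value for both genes, among them Ars replicate 3, at 161 normalized counts for BBC3 and 313 for DAPK3. Some genes below that minimum, picked after their values were seen, also lay outside the Ars range. BMF had 5 reads in the untreated library, 4.75 normalized counts with an interval of 1.54 to 11.1, beside 79.0, 89.4 and 67.9 in Ars libraries. BCL2, XIAP and BIRC2 were higher untreated than in any Ars library, at 48.5, 61.8 and 147 normalized counts, or 4.24, 3.66 and 2.48 times the Ars mean. Each of these 3 untreated values also lay above all EBSS+VBL libraries. BIRC3 was higher untreated as well, at 13.3 normalized counts, while CASP6 and CASP9 were lower than in any Ars library, at 16.2 and 36.1.

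A further list of 48 apoptosis genes outside the 37 was examined in the same fit, and 32 of them were tested. Of these, 8 were higher and 4 lower in starved than in Ars cells (37.5% called, beside 42.8% of all genes), and 3 were higher and 1 lower with glutamine (12.5%, beside 17.0%). The largest rises in starved cells were those of BCL2A1, a pro-survival relative of BCL2 and NF-kB target, from 1.13 ± 0.644 to 32.9 ± 8.80 normalized counts (SD, n = 3), DDIT3, which encodes CHOP, by 3.28 (SE 0.13) on the log2 scale, and CYLD, a deubiquitinase that restrains NF-kB, by 2.35 (SE 0.16). The largest falls were those of AIFM1, which encodes the mitochondrial flavoprotein AIF, at -1.82 (SE 0.25), the mitochondrial channel gene VDAC3 at -1.41 (SE 0.22) and BIRC5, which encodes survivin, at -0.69 (SE 0.13). With glutamine, the cytokine gene TNF rose by 1.42 (SE 0.44), on few counts, from 8.67 ± 3.63 to 23.6 ± 3.49 normalized counts, AIFM1 by 0.86 (SE 0.25) and BCL2L13, a mitophagy receptor of the BCL2 family, by 0.64 (SE 0.14), while DDIT3 fell by 0.99 (SE 0.13).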

How the data were processed

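RNA from 10 U2OS samples was sequenced after ribosomal RNA removal. The authors used STAR for alignment (hg38) and HTSeq for gene counts, and deposited a signal, these counts after division by DESeq2 size factors; their versions are not given in the sources used here. Low values gave the worth of 1 read per library, and 100% of the values were whole reads within 0.01 of a read, so 3538017 to 7019842 reads per library were recovered.

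The main test was limma 3.58.1 (trend) on log2(normalized count + 1) in 1 fit of the 3 replicated groups, with genes of a mean of at least 10 and Benjamini-Hochberg adjustment over 12971 genes. A call needed an adjusted p under 0.05 and 1.5-fold. Members called in at least 1 comparison are given per library. edgeR 4.0.16 and DESeq2 1.42.0 on the recovered reads, other pseudocounts, filters, scalings, a replicate block and libraries left out were alternatives. Scripts were tested on simulated data. Intervals on single libraries cover counting error only. At this depth, low genes rest on a few reads.

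The 37 genes and the other lists were chosen with earlier results of these data known. The 3 promoter windows were chosen after motif matches had been seen, with CFLAR in place of PMAIP1, which had no match. Coordinates follow GENCODE 44 on hg38. A search for BH3 motifs in protein sequences was not analysed here.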

Additional observations from a re-analysis of the deposited data

How the results depend on the processing

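Of the 23 calls between starved and Ars cells, 16 held under every alternative that tested the gene, as did 2 of the 11 with glutamine (BOK and BIK) and 16 of the 20 between glutamine-recovered and Ars cells. No gene called as reported or under an alternative changed direction; genes called under neither were not counted. With a minimum mean of 50, 8622 genes were tested, 24 of the 37 among them. Between starved and Ars cells 3635 were called, and 1568 of these were lower (18.2%), with 4 of the 24 (16.7%). Between glutamine-recovered and Ars cells 2723 were called (1177 lower). With glutamine 663 were higher (7.69%), with 1 of the 24 (4.17%). In either direction 7 of the 24 were called with glutamine (29.2%, beside 17.5% of the 8622 genes). With equal totals, 2836 genes were higher and 330 lower with glutamine (21.9% and 2.54%). Of the 33 tested among the 37, 7 were called, 5 higher and 2 lower (15.2% and 6.06%). Without the 10 most abundant genes in the totals, 2258 genes were higher and 483 lower with glutamine (17.4% and 3.72%). Of the 33, 6 were called (18.2%, beside 21.1% of all genes), 3 of them lower (9.09%). With no minimum fold 3729 genes were called with glutamine, 1692 higher and 2037 lower. Leaving out libraries, the genes of the 33 that were higher with glutamine numbered 1 to 5. There were 5 without EBSS+VBL+Ars replicate 1 (15.2%, beside 11.8% of all genes). There was 1 (3.03%) without EBSS+VBL+Ars replicate 2 or 3 or EBSS+VBL+Gln+Ars replicate 3, beside 6.52% to 7.36% of all genes. Leaving out replicate 3 of every group was chosen after seeing the data and leaves 2 libraries a group. There 977 genes were called with glutamine, 428 higher and 549 lower (3.30% and 4.23%). Of the 33, 4 were called, 1 higher and 3 lower (3.03% and 9.09%). The cause of these differences was not tested. Same-numbered libraries deviated from their group means with correlations of -0.06 to 0.31, with 4 of 9 over 0.1. Different-numbered libraries had correlations of -0.31 to 0.21, with 4 of 18 over 0.1. These ranges overlap and do not settle whether the numbers are pairs, and the main fit had no replicate block. With the replicate block, 24, 11 and 20 of the 33 were called in the 3 comparisons. These were 72.7%, 33.3% and 60.6%, beside 43.4%, 18.4% and 32.6% of all genes. Depth limits BCL2, BMF, BIK, CASP6, APAF1, XIAP, BIRC3 and FAS, the tested genes with 10 or fewer reads in at least 1 replicated library.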
